A study of Mus musculus with 6 samples.

Results

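The genes described here are 9 regulators of the midbrain, the midbrain-hindbrain boundary and the rhombomeres: En1, En2, Gbx2, Pax2, Pax5, Pax8, Lmx1b, Fgf8 and Egr2. They were taken by name, whatever their values, and all 9 were among the 17551 genes of the deposited HTSeq count table. The libraries are total RNA from mouse neurospheres, which are clusters of neural stem cells and progenitors kept in suspension, here with EGF and FGF in the medium. The G328V group has 3 libraries with the genotype ACVR1 G328V and the WT group has 3 with the genotype ACVR1 WT, all on a C57BL/6 background. ACVR1 is a receptor of the bone morphogenetic protein pathway. The labels give no age, sex or brain region, nor how the ACVR1 change was introduced. The replicates are called biological, but the animals or cultures behind them are not named, so p-values speak only of the spread among these libraries.

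In the embryo, a narrow constriction between midbrain and hindbrain, the isthmus, acts as a signalling centre that secretes FGF8 and WNT1. OTX2 on its anterior side and GBX2 on its posterior side place it, and PAX2, PAX5, LMX1B, EN1 and EN2 establish and maintain it. Further back the hindbrain is divided into segments called rhombomeres, of which the third and the fifth are marked by EGR2, also named KROX20. PAX8 is better known from the thyroid and kidney, and EGR2 from Schwann cells, where it drives myelination. EGR2 is also one of the immediate early genes that serum and growth factors switch on.

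The promoters of Pax2 and Egr2 are shown because the largest difference and the highest levels among the 9 genes were theirs. RefSeq promoter windows on GRCm38.p6 were matched for 7 of the 9 members, and each sequence is the 250 bases before one annotated start, given on the plus strand. For Egr2, chr10:67537619-67537868, the capitals mark a CArG box, the element bound by serum response factor, 72 to 63 bases before the start. For Pax2, chr19:44746351-44746600, the capitals mark GTCTAGAC, a palindrome bound by SMAD proteins, 18 to 11 bases before the start. That start, 44746601, lies upstream of the annotated Pax2 gene, which begins at 44756045.
Egr2: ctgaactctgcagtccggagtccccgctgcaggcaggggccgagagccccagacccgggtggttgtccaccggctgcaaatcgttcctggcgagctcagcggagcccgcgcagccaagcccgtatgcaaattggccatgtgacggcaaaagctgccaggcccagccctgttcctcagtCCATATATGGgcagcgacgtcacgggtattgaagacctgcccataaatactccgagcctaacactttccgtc
Pax2: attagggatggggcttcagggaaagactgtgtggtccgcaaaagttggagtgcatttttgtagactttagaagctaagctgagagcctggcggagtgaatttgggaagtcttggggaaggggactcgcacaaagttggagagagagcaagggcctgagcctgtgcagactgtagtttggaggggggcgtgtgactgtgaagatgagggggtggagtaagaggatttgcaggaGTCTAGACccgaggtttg
Among 32851 promoter windows of this length, 1.47% held a CArG box and 0.167% held GTCTAGAC, read on both strands. The motifs were chosen after the sequences were seen, a match is not evidence of binding, and gene counts cannot tell which start was used. Another Pax2 start, 44755752, had neither motif in its window, and nor did the Egr2 start at 67535499, near the start of the annotated gene. The Pax2 start at 44756906 also had neither, but its window held GGCGCC, a GC-rich SMAD motif that was searched as well. GGCGCC was in 9.59% of all windows, and also in the Gbx2 window.

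The libraries differed in more than genotype. They held 115953495 to 182626231 counts in G328V and 120457925 to 191115532 counts in WT. Levels are given in CPM, the count divided by the TMM-scaled library size in units of 1e6 counts, and 3 counts correspond to 0.0163 to 0.0249 CPM. Acvr1 itself had 244, 250 and 650 CPM in G328V replicates 1, 2 and 3, against 42.4, 100 and 90.7 CPM in the WT replicates 1, 3 and 70A. Xist, which is transcribed from the inactive X chromosome, had 443 to 795 CPM in G328V and 0.250 to 1.18 CPM in WT. The Y-linked gene Ddx3y had 0 to 0.0326 CPM in G328V and 17.7 to 51.0 CPM in WT. The sex-linked genes therefore separate the same libraries as the genotype, and sex and genotype cannot be told apart in any comparison below. WT replicate 1 stood apart, with 416 CPM of the oligodendrocyte lineage gene Olig2 against at most 0.938 CPM in the other 5 libraries. The progenitor markers Sox2 and Vim were present in all 6 libraries, Sox2 at 145 to 237 CPM in G328V and 134 to 179 CPM in WT. Fabp7 and Msi1, from the same list of 8 such markers, were uneven. WT replicate 1 was the highest library, with 1313 CPM of Fabp7 and 40.6 CPM of Msi1. The lowest library was WT replicate 3, where Fabp7 had 0.182 CPM and Msi1 had 0.716 CPM. Sox2 and Vim alone therefore do not show that the libraries held progenitors to a like extent.

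No member passed the test between genotypes. Pax2 came nearest and was the only member whose groups did not overlap, Pax8 and Egr2 averaged higher in G328V, and En1 and En2 averaged lower. The edgeR quasi-likelihood test with Benjamini-Hochberg adjustment was fitted on the 14643 genes that passed a low-count filter, 7 of them members, and called 0 of the 7 at a false discovery rate of 0.05. The background was 0%, since edgeR called 0 of the 14643 genes, and each of the 7 members had an adjusted p of 0.997. Even Xist and Ddx3y, with log2 differences of 9.72 and -11.3, had adjusted edgeR p-values of 0.254 and 0.718. The absence of calls therefore does not show that the members were unchanged. At an unadjusted edgeR p under 0.05 it was 1 of 7 members, Pax2, and 594 genes, or 4.06%. Groups that did not overlap were seen in 1 of 7 members, again Pax2, and in 9.7% of the genes tested. DESeq2, run as an alternative, called 1 of the 8 members to which it gave an adjusted p, Pax2, against 1.05% of 16521 genes, and limma-voom called 0. The log2 difference was positive in 5 members and negative in 2, against 7275 positive of the 14643 genes tested. The median over the 7 members was 1.15, the value of Lmx1b (SE 2.19), against -0.00389 over all genes tested. Pax2, the largest difference, passed the low-count filter only through its G328V libraries. In bulk RNA, fewer cells of a type and less RNA per cell cannot be told apart.

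**Figure D1:**
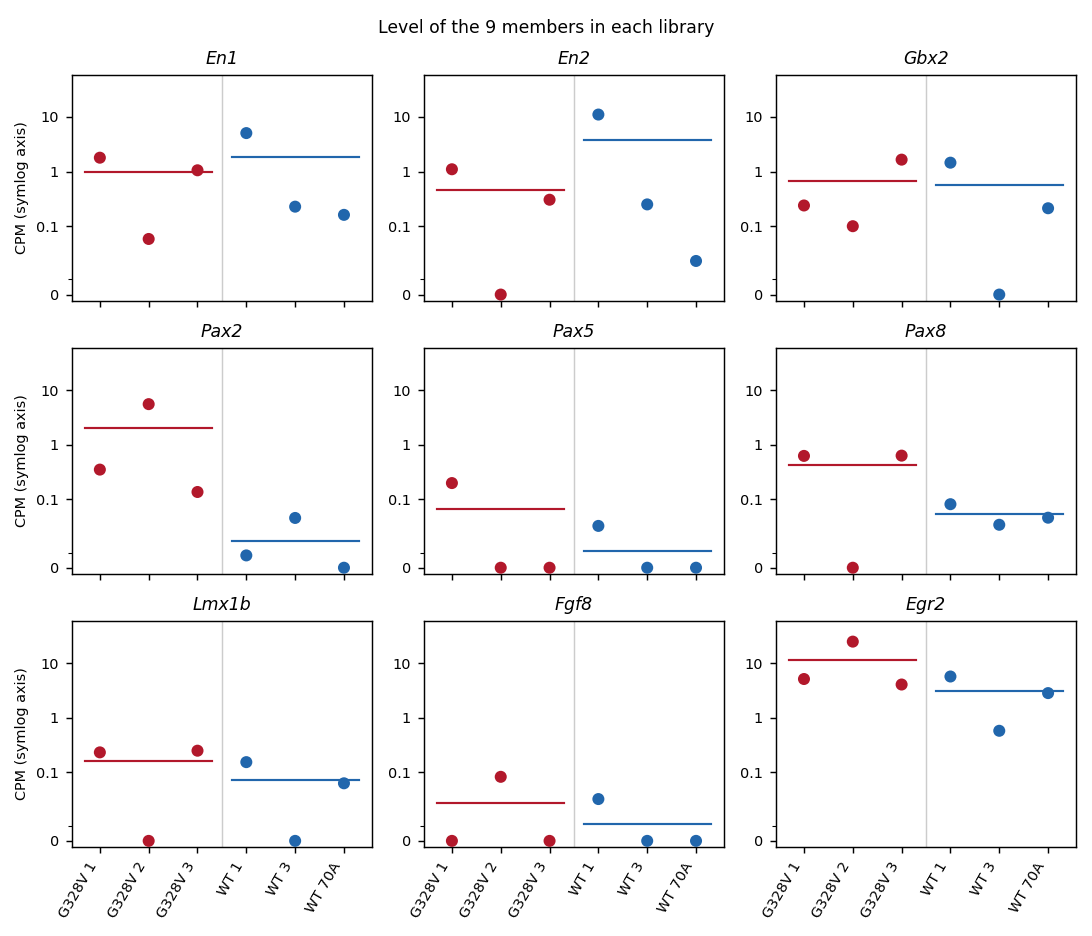
Level of each of the 9 members in each library, in CPM on a log scale that is linear near 0, with the 3 G328V libraries left of the 3 WT libraries. Each point is 1 library. The highest Pax2 value is G328V replicate 2, at 5.54 CPM, and the highest En2 value is WT replicate 1, at 11.1 CPM.

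Pax2, the paired-box factor that acts earliest at the boundary, lies on chromosome 19 from 44756045 to 44837871 (GRCm38, plus strand). It had 0.350, 5.54 and 0.136 CPM in G328V replicates 1, 2 and 3, while WT replicates 1, 3 and 70A had 0.00813, 0.0455 and 0 CPM. In counts this was 60, 667 and 25 in G328V and 1, 8 and 0 in WT, a total of 752 against 9. Every G328V library was above every WT library, but G328V replicate 2 alone carried 91.1% of the summed CPM, 15.8 times the next library. The log2 difference was 6.74 (SE 2.38), with an unadjusted edgeR p of 0.0288 and an adjusted edgeR p of 0.997. An exact two-sided permutation test on log2(CPM + 1) gave p = 0.1, the smallest that 3 against 3 allows. DESeq2 gave 6.78 (SE 1.83) with an adjusted p of 0.0274. Without G328V replicate 2 the edgeR log2 difference was 3.70 and the DESeq2 adjusted p was 0.623, and without WT replicate 1 the DESeq2 adjusted p was 0.0573. With the shared replicate numbers 1 and 3 as a block, the log2 difference was 3.25. That estimate rests on replicates 1 and 3 of each genotype, so it too leaves out G328V replicate 2.

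Pax8, a related factor on chromosome 2 from 24420560 to 24475599 (minus strand), had 0.624, 0 and 0.631 CPM in G328V replicates 1, 2 and 3. The WT libraries had 0.0813, 0.0341 and 0.0460 CPM. Replicates 1 and 3 of G328V were above all WT libraries, while replicate 2, the library highest in Pax2, had no Pax8 count. The log2 difference was 2.95 (SE 1.96) with an adjusted edgeR p of 0.997. Pax5, on chromosome 4 from 44524757 to 44710487 (minus strand), acts with Pax2 at the boundary and is also a B cell factor. It had 34 counts in G328V replicate 1, 4 in WT replicate 1 and 0 in the other 4 libraries, and did not pass the filter.

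The Engrailed genes En1 and En2 encode homeodomain factors of the midbrain and anterior hindbrain, and lie on chromosome 1 from 120602418 to 120607992 and on chromosome 5 from 28165694 to 28172166 (both plus strand). En1 had 1.80, 0.0581 and 1.06 CPM in G328V replicates 1, 2 and 3, against 5.07, 0.227 and 0.161 CPM in the WT replicates 1, 3 and 70A. En2 had 1.10, 0 and 0.305 CPM in G328V, against 11.1, 0.250 and 0.0230 CPM in WT. The genes put the 6 libraries in the same order, with WT replicate 1 highest, G328V replicates 1 and 3 next, and G328V replicate 2 lowest. WT replicate 1, the Olig2-rich library, carried 60.6% of the summed En1 CPM and 86.8% of the summed En2 CPM. The log2 difference was -0.91 (SE 1.77) for En1 and -3.01 (SE 2.60) for En2, each with an adjusted edgeR p of 0.997. Without WT replicate 1 both turned positive, at 2.31 for En1 and 1.78 for En2.

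The balance between the Engrailed genes also differed between libraries. It is given on the fragments of the deposited Cufflinks table, since a read pair gives about 2 HTSeq counts. En2 made up 38.5% of the En1 and En2 fragments in G328V replicate 1 (exact 95% interval 32.5% to 44.8%) and 27.7% in G328V replicate 3 (20.7% to 35.7%), and these intervals overlapped. In WT it was 67.9% in replicate 1 (65.0% to 70.8%), 51.2% in replicate 3 (35.5% to 66.7%) and 10.5% in replicate 70A (1.30% to 33.1%). The interval of WT replicate 1 lay above those of G328V replicates 1 and 3. WT replicate 70A had a lower share than both, but its interval, on 19 fragments, overlapped theirs. In G328V replicate 2 the share was 0 of 4 fragments, which allows up to 60.2%. These intervals cover counting error only.

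**Figure D2:**
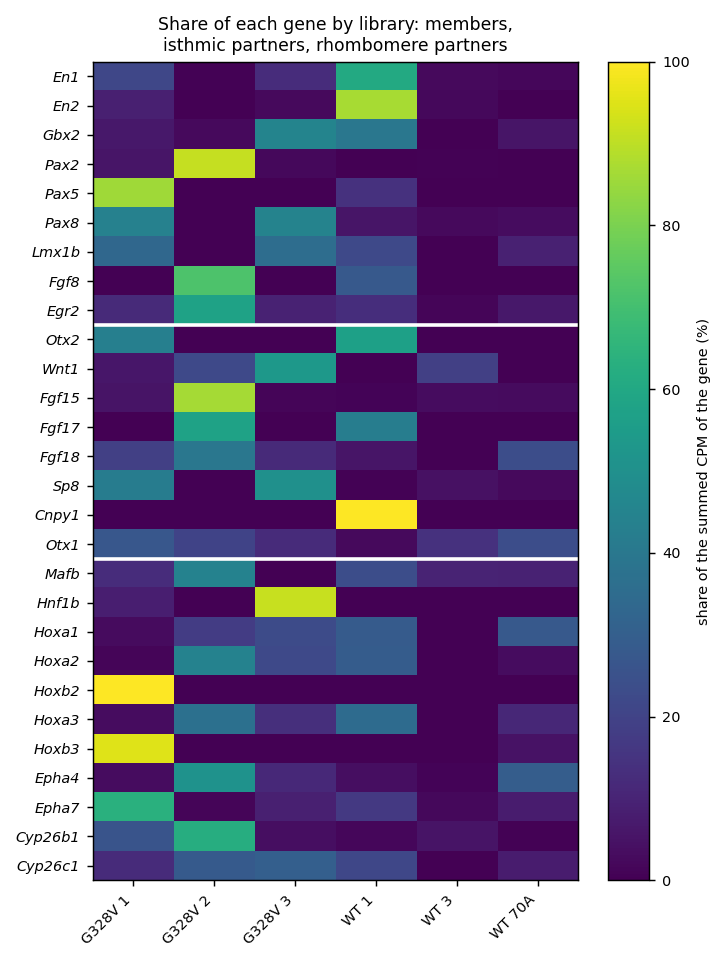
Share of each member's summed CPM that came from each library, in percent, with the G328V libraries before the WT libraries. G328V replicate 2 held 91.1% of Pax2 and 57.6% of Egr2, and WT replicate 1 held 86.8% of En2.

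Gbx2, which sets the posterior side of the boundary, lies on chromosome 1 from 89927956 to 89931179 (minus strand). It had 0.239, 0.0997 and 1.65 CPM in G328V replicates 1, 2 and 3, against 1.45, 0 and 0.213 CPM in the WT replicates 1, 3 and 70A. One library of each genotype was high, and the groups overlapped almost fully. The log2 difference was 0.26 (SE 2.13), with an adjusted edgeR p of 0.997, and leaving out G328V replicate 3 turned it to -1.71. Lmx1b, a LIM-homeodomain factor of the isthmus and of dopaminergic and serotonergic neurons, lies on chromosome 2 from 33560965 to 33640511 (minus strand). It had 0.233, 0 and 0.250 CPM in G328V, against 0.154, 0 and 0.0632 CPM in WT, a log2 difference of 1.15 (SE 2.19). Its 4 highest libraries came in the same order as those of Pax8.

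Fgf8, the signal of the isthmus, was close to absent. It lies on chromosome 19 from 45736798 to 45742915 (minus strand), with 10 counts in G328V replicate 2, 4 in WT replicate 1 and 0 in the other 4 libraries. It did not pass the filter.

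Egr2 had the highest level per length of the members, as given further on, and was the only one with over 100 counts in every library. It lies on chromosome 10 from 67535475 to 67542188 (plus strand). The values were 5.15, 25.0 and 4.08 CPM in G328V replicates 1, 2 and 3, against 5.73, 0.580 and 2.84 CPM in the WT replicates 1, 3 and 70A. G328V replicate 2 was highest and WT replicate 3 lowest, and the other 4 libraries lay within 2.84 to 5.73 CPM with both genotypes mixed. The log2 difference was 1.90 (SE 1.10) with an adjusted edgeR p of 0.997, and 0.60 without G328V replicate 2.

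**Figure D3:**
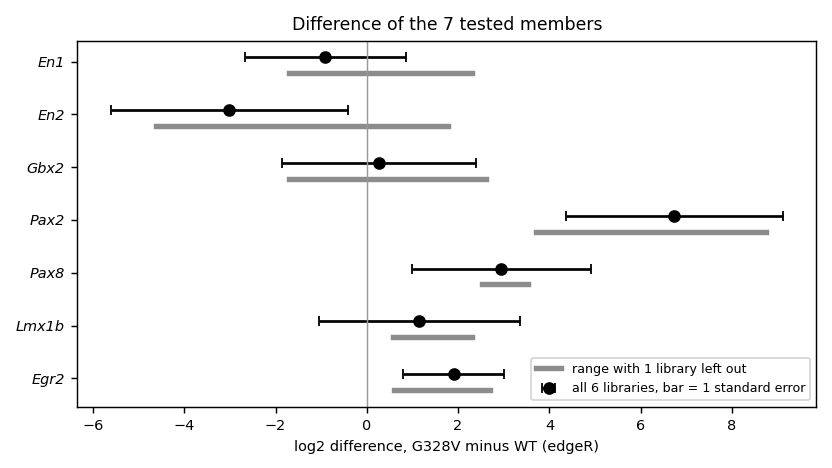
Log2 difference, G328V minus WT, of the 7 tested members, with its standard error and the range over fits that each left out 1 library. Pax2 stayed between 3.70 and 8.75, Pax8 between 2.52 and 3.53, and En1, En2 and Gbx2 had ranges on both sides of 0.

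Per kilobase of exon, the order of mean levels over the 6 libraries was Egr2 at 2.13 ± 2.61 CPM per kb, En2 at 0.601 ± 1.24, En1 at 0.531 ± 0.732, Gbx2 at 0.280 ± 0.339 and Pax2 at 0.187 ± 0.411 (SD, n = 6). Pax8, Lmx1b, Fgf8 and Pax5 followed, at 0.0389, 0.0239, 0.0143 and 0.00434 CPM per kb. The ranges of all 8 neighbouring pairs overlapped, so no step in this order exceeded the spread between libraries. The forebrain gene Emx2 had a mean of 5.23 CPM per kb on the same scale and the anterior gene Otx1 2.91 CPM per kb, while Otx2 had 0.00849 CPM per kb.

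**Figure D4:**
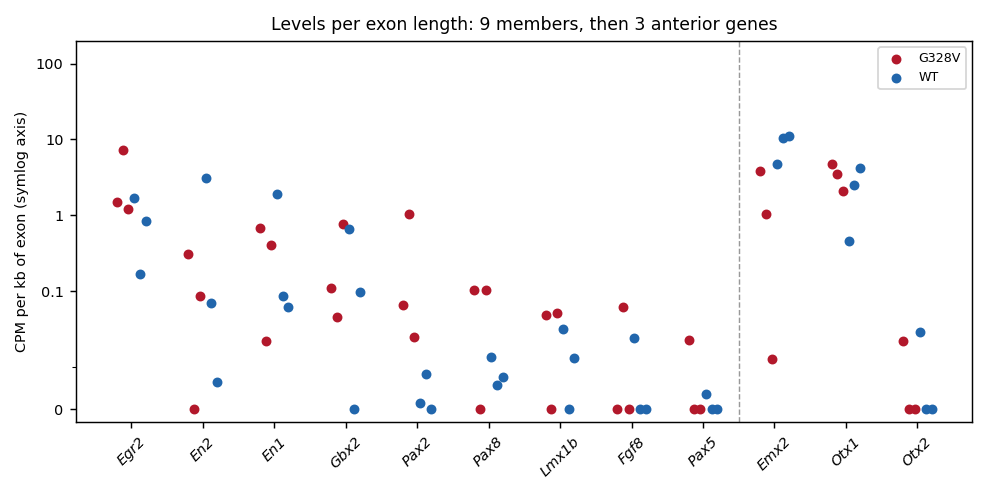
Level of each member in CPM per kilobase of exon on a log scale that is linear near 0, with forebrain and anterior genes for scale and G328V points left of WT points. Egr2, the highest member, averaged 2.13 CPM per kb, against 5.23 CPM per kb for Emx2.

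The partners of Fgf8 at the isthmus were described from a list. Of 8 listed isthmic partners 5 were tested, edgeR called 0, and all 5 log2 differences were positive with a median of 2.09. Over all genes tested, 7275 of 14643 were positive. Of the partners that did not pass the filter, Cnpy1 and Otx2 averaged higher in WT and Fgf17 higher in G328V. Fgf15, another FGF ligand, had 1.16, 18.8 and 0.326 CPM in G328V, against 0.195, 0.682 and 0.615 CPM in WT (log2 difference 3.76, SE 1.66). Like Pax2 and Egr2 it was highest in G328V replicate 2, without which the log2 difference was 0.58. With the replicate block, to which G328V replicate 2 does not contribute either, the Fgf15 difference was 0.74. Sp8 differed by 3.57 and Wnt1 by 2.09 on the log2 scale, and neither passed. The FGF receptors and feedback targets summed to 1896 to 3829 CPM in G328V and 2568 to 4151 CPM in WT. Of 14 tested 0 were called by edgeR, 8 were positive and 6 negative, with a median of 0.03. Il17rd, Etv5 and Spry4, which are induced by FGF signalling, had log2 differences of -1.22, -0.89 and -0.46. 

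Around Egr2, 8 of 12 rhombomere partners were tested and edgeR called 0, with 7 positive, 1 negative and a median of 1.01. Cyp26b1, which degrades retinoic acid, had 82.6, 196 and 12.0 CPM in G328V, against 5.72, 16.9 and 2.37 CPM in WT, with an unadjusted edgeR p of 0.0236 and a log2 difference of 3.54 (SE 1.19). Epha7 and Cyp26c1 differed by 1.5 and 1.29. Hoxa2, a target of EGR2 in the mouse hindbrain named here after its values were seen, had 0.291, 10.01 and 4.97 CPM in G328V, against 6.52, 0 and 0.730 CPM in WT. Hoxb2, another Hox gene of this list, had 1.92 CPM in G328V replicate 1 and 0 in every other library. Of the 10 EGR relatives, cofactors and immediate early genes edgeR called 0, with 6 positive, 4 negative and a median of 0.17. Fos had 11.3, 30.3 and 14.5 CPM in G328V, against 5.41, 8.30 and 5.69 CPM in WT (log2 difference 1.53, SE 0.51). Its groups did not overlap, as was so for 9.7% of all genes tested. Fos and Egr2 were both highest in G328V replicate 2. Junb and Egr1 differed by 0.81 and 0.44.

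Genes of neurons and territories that arise near the boundary gave 0 edgeR calls. Of 7 dopaminergic and floor plate genes tested 5 were positive (median 1.26). Foxa1 had 4.90, 3.94 and 2.19 CPM in G328V against 0.739, 0 and 0.161 CPM in WT. Its groups did not overlap, as was so for 9.7% of all genes tested. Nr4a2 and Slc6a3 differed by 1.07 and -3.53. Of 5 serotonergic genes 2 were positive (median -0.93). Slc6a4, the serotonin transporter, had 7.10, 0.133 and 65.0 CPM in G328V, against 0.122, 0.0455 and 0.247 CPM in WT, and was highest in G328V replicates 3 and 1, as were Lmx1b and Pax8. Gata2 and Gata3 differed by 3.18 and -1.18, and Tph2 and Nkx2-2 by -0.93 and -1.50. Tph2 and Nkx2-2 were highest in WT replicate 1. Fev, a listed gene absent from the HTSeq counts, had 0 Cufflinks fragments in every library. Of 7 cerebellar genes 4 were positive (median 0.34, which took either sign under the alternatives), with Meis1, Barhl2 and Lhx2 at -1.39, -3.60 and -2.14. DESeq2 called Slc6a4, with an adjusted p of 6.44e-04.

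Markers of other cells and tissues in which these genes act had 0 edgeR calls in each list. Values below for single genes are log2 differences, and the part of these markers in the members' values was not tested. Schwann and myelin genes summed to 99.3 to 569 CPM in G328V and 264 to 724 CPM in WT, with Pou3f1 and Mbp at -5.50 and 2.51. Forebrain genes summed to 83.3 to 147 CPM in G328V and 87.8 to 193 CPM in WT, with 1 of 6 positive and Emx2, Six3 and Nkx2-1 at -2.42, -3.80 and -0.94. Stem and progenitor markers had 2 of 8 positive, with Sox9, Prom1 and Notch1 at -1.35, 2.81 and -1.55. Immune and B cell genes summed to 25.7 to 64.9 CPM in G328V and 3.998 to 81.2 CPM in WT, with Itgam, Ptprc and Ebf1 at -2.53, 3.13 and 1.60. Endothelial and mural genes summed to 33.1 to 300 CPM in G328V and 5.17 to 84.5 CPM in WT, with Rgs5, Cdh5 and Kdr at 6.22, -5.14 and 0.81. Rgs5 in G328V replicate 3 alone had 299 CPM, and without that library its log2 difference was 1.64. Kidney, ear and thyroid partners of the PAX genes had 3 of 7 positive, with Slc5a5, Lhx1 and Gata6 at 3.56, 3.32 and -0.36. Across these lists the groups did not overlap for Emx2, Sox9, Prom1 and Lhx1. Over all genes tested 9.7% did not overlap.

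Likeness of pattern was measured as the root mean square difference of centred log2 CPM over the 6 libraries, among 4799 variable genes. It is a description, since the points share libraries. Nearest to En1 were Fgl1, Cecr2 and Mansc1, at 0.25, 0.30 and 0.49, and nearest to Egr2 were Mcf2l, Itga8 and Tmem136, at 0.39, 0.45 and 0.45. Nearest to Pax2 were Alk, Hmx3 and Pcsk2, at 0.82, 0.86 and 1.10, and nearest to En2 were Stxbp5l, Serpini1 and Nap1l3, at 1.13, 1.13 and 1.30. Nearest to Gbx2 were Nat8l, Map3k9 and Grb14, at 0.59, 0.61 and 0.84. Nearest to Pax8 were Mak, Gnat2 and As3mt, at 0.61, 0.63 and 0.70, and nearest to Lmx1b were Pou5f2, Spink10 and Fn3k, at 0.38, 0.40 and 0.44. The candidates' median difference lay between 2.36 for Egr2 and 3.76 for En2. Among members, Pax8 and Lmx1b were closest, at 1.01, and En2 and Pax2 farthest apart, at 5.20.

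Reads of genes that overlap on opposite strands may be shared between them, since the sources used here do not give whether strand was used in counting. Gbx2 overlaps D130058E05Rik over 946 bases and Pax8 overlaps Gm13415 over 35182 bases, and Pax2 overlaps Gm20395 over 10751 bases. The HTSeq table held 1.95 to 1.96 counts for each fragment of the deposited Cufflinks table, as the median over 8924 genes. Pax8 had 2.01 counts per fragment in G328V and 0.889 in WT, and Gbx2 had 1.65 in G328V and 1.27 in WT. On the Cufflinks fragments the log2 difference was 1.75 for Pax8 and -0.04 for Gbx2.

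**Figure D5:**
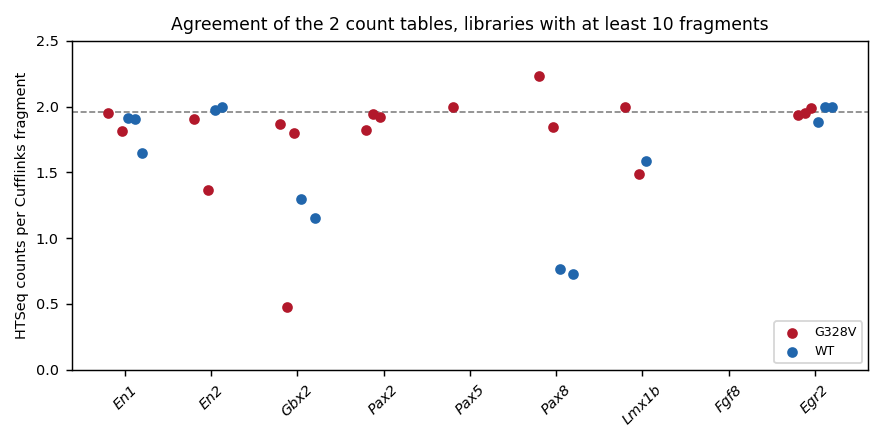
HTSeq counts per Cufflinks fragment for members with at least 10 fragments in a library, with G328V points left of WT points. Egr2 lies between 1.88 and 2.00 in the libraries shown, near the median of all genes, and Gbx2 and Pax8 have values below it.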

How the data were processed

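Total RNA of 6 mouse neurosphere libraries was sequenced, 3 per genotype. Per the labels' protocols, ribosomal RNA was depleted and paired ends were read. The labels name a stranded TruSeq and a Pico kit. Per the submitters' processing notes, the build was mm10 and the tools were FastQC 0.11.3, TopHat2 2.0.13 and Bowtie2 2.2.1. The sources used here do not give their roles, how counting was set, whether strand was used, or which annotation. The authors deposited whole-number counts per gene (HTSeq, 17551 genes, 0 rows naming no gene). They also deposited estimated counts of fragments (Cufflinks, 23107 genes), which were rounded for an alternative. A read pair gives about 2 counts, so counts are not independent molecules.

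G328V was tested against WT in R 4.3.3 with edgeR 4.0.16 (quasi-likelihood F-test, robust legacy fit, TMM, filterByExpr with a minimum count of 10, Benjamini-Hochberg adjustment over all tested genes). As alternatives, DESeq2 1.42.0 and voom of limma 3.58.1 were run. Adjusted p-values that DESeq2 left as NA stayed NA. Likeness took a prior count of 2 on log2 CPM. The code was tested on simulated data. Exon lengths and coordinates come from GENCODE vM21 on GRCm38. Totals per library and the floor of 3 counts are given above. From each list, up to 3 genes with the smallest unadjusted edgeR p were named, and for each tested member the 3 genes most like it. Some genes that this rule or the tests picked are not reported here. The members and lists were chosen with earlier results of these data known.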

Additional observations from a re-analysis of the deposited data

How the results depend on the processing

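Across all genes edgeR called 0 under every alternative run in edgeR or limma-voom, with 456 to 1024 genes at an unadjusted p under 0.05 when 1 library was left out. DESeq2 called 173 genes (94 higher, 79 lower), 1 member and 2 list genes. Leaving out each library in DESeq2, chosen after seeing the data, gave 283, 405 and 329 genes without G328V replicates 1, 2 and 3, and 727, 272 and 374 without WT replicates 1, 3 and 70A. In the same order 6, 9, 4, 13, 4 and 7 list genes were called, and 1 member each time except without WT replicate 1, where it was 0. Without G328V replicate 2 the called member was Pax8 and not Pax2. With the replicate block (numbers 1 and 3) edgeR called 0 genes and 609 had an unadjusted p under 0.05. In that fit G328V replicate 2 and WT replicate 70A, which share no number, do not inform the difference. The deviations of same-numbered libraries correlated at 0.181 and 0.226, but with 2 pairs the libraries share only a number.

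Of 696 recomputed log2 differences of 48 genes, 664 kept direction and side of the threshold, 5 passed in the same direction under DESeq2 and 27 changed direction, and the cause was not tested. Under limma-voom En1 was 0.11, Gata3 0.30, Lhx2 1.72 and Mbp -0.88. On Cufflinks fragments Gbx2 was -0.042. With the replicate block En1 was 0.35, Il17rd 0.23, Gata3 2.25, Lhx2 0.49 and Egr1 -0.14. Leaving out 1 library at a time gave ranges on both sides of 0 for 15 genes. The positive end came without WT replicate 1 for En1 (-1.70 to 2.31), En2 (-4.62 to 1.78), Gbx2 (-1.71 to 2.62), Etv5 (-1.28 to 0.032), Epha7 (-0.76 to 2.38), Barhl2 (-5.47 to 1.14), Lhx2 (-2.73 to 3.51), Pou3f1 (-6.94 to 0.44), Six3 (-13.3 to 2.72) and Notch1 (-2.19 to 0.060). The negative end came without G328V replicate 1 for Mbp (-1.80 to 3.10) and Kdr (-1.59 to 2.94). Egr1 ranged from -0.26 to 0.80, Slc5a5 from -1.07 to 5.43 and Gata3 from -1.90 to 2.18. Several list medians changed sign. The serotonergic median (-0.93) was 3.54 under limma-voom, 2.25 with the replicate block, and 2.59 and 2.18 without WT replicates 1 and 70A. The cerebellar median (0.34) was 2.58 under limma-voom, 2.99 with the block and -0.55 under DESeq2, and ran from -1.04 to 1.14 with 1 library left out. The stem and progenitor median was 0.61 without WT replicate 1. The FGF, immediate early, Schwann, endothelial and kidney medians also took both signs over the alternatives. Total-count scaling moved the median of all genes by 0.119 on the log2 scale.

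Moves of over 1.5 times with no change of sign included the following. Without G328V replicate 2 Fgf15 was 0.58, Fos 1.00, Junb 0.12, Meis1 -2.34, Itgam -5.28 and Ebf1 0.45. Without G328V replicate 3 Gata2 was 1.09, Slc6a4 4.70, Rgs5 1.64 and Ptprc 2.00. Without WT replicate 1 Lmx1b was 2.31, Foxa1 5.48, Prom1 4.47, Spry4 -0.17 and Ebf1 9.25, and without WT replicate 3 Lmx1b was 0.57 and Wnt1 8.04. Without WT replicate 70A Gata2 was 6.59, Ptprc 8.24, Lhx1 10.5 and Slc6a3 -1.71.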

Other observations

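The libraries differed in how many members they held. With at least 10 counts, 8, 4 and 7 members were found in G328V replicates 1, 2 and 3, against 6, 3 and 4 in WT replicates 1, 3 and 70A. Summed without Egr2, the members had 4.54, 5.78 and 4.03 CPM in G328V, against 17.9, 0.557 and 0.506 CPM in WT, so that WT replicate 1 was above and the other WT libraries were below every G328V library. Cnpy1, which acts in FGF signalling at the zebrafish boundary, lies 28652 bases from En2 and had 1.11 CPM in WT replicate 1, the library highest in En2, and 0 in the other 5.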
